A study of Mus musculus with 8 samples.

Results

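The genes of the synaptonemal complex and of its HORMA axis were followed from pachytene spermatocytes (PS) to round spermatids (RS), at the level of RNA and of histone H3 lysine 27 acetylation (H3K27ac). The set was chosen by name and held 10 of the 23343 genes in the deposited RNA tables. It comprised Sycp1, Sycp2, Sycp3, Syce1, Syce2, Syce3, Tex12, Hormad1, Hormad2 and Trip13. All cells came from testes of adult C57BL/6 mice, and PS and RS were separated by gravity sedimentation in a BSA gradient. H3K27ac was measured by ChIP-seq in wild-type cells of both stages. RNA was measured by RNA-seq in both stages of the Rnf8- and Scml2-dKO (dKO), a double knockout of the ubiquitin ligase gene Rnf8 and the Polycomb-related gene Scml2. Each of the 4 groups had 2 replicates, which the study's methods give as biological. The RNA came from small-scale preparations in which the cells of 1 dKO male were separated, whereas the ChIP-seq used the larger-scale version of the method. Wild-type RNA was not analysed here, so every RNA value below belongs to dKO cells, every H3K27ac value belongs to wild-type cells, and the effect of genotype cannot be told apart from that of the assay.

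The synaptonemal complex is the protein zipper that holds homologous chromosomes together along their length in meiotic prophase. SYCP2 and SYCP3 build the chromosome axes that become its lateral elements, SYCP1 forms the transverse filaments that span the gap, and SYCE1, SYCE2, SYCE3 and TEX12 form the central element where the filaments meet. HORMAD1 and HORMAD2 sit on axes that have not yet synapsed, and the AAA+ ATPase TRIP13 removes them as synapsis proceeds. The complex is complete at pachytene and is taken apart before the first meiotic division, so round spermatids, which are haploid, have none.

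The RNA libraries held between 9655405 and 12289694 reads on genes, and replicates correlated across the 14647 tested genes with Pearson r of 0.985 in PS and 0.990 in RS. The labelled stages were checked against marker genes. The 8 spermatid markers were all higher in both RS libraries than in both PS libraries, and their summed RPKM (reads scaled to transcript length and to library size) was 500.1 and 839.1 in the PS libraries against 13908 and 14764 in the RS libraries. Of 6 pachytene markers, 5 were higher in both PS libraries. Leydig cell markers summed to 727 and 546 RPKM in PS against 68.0 and 42.4 in RS, Sertoli cell markers stayed between 2.36 and 5.72 RPKM in all 4 libraries, and 2 erythroid markers were at 0. The 2 macrophage markers found, Csf1r and Cd68, were higher in both RS libraries, with sums of 0.892 and 0.954 RPKM in PS against 9.94 and 8.59 in RS. The 2 peritubular markers summed to 1.54 to 2.35 RPKM in all 4 libraries, and 6 of 7 spermatogonial markers were higher in both RS libraries, with sums of 23.4 and 16.7 RPKM in PS against 34.6 and 29.5 in RS. Reads remained on both targeted genes. Rnf8 had 93 and 110 reads in PS and 61 and 50 in RS, and Scml2 had 40 and 92 in PS and 44 and 98 in RS. Which exons those reads came from was not analysed here, so they do not check the knockout.

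The 10 genes lie on 9 autosomes, with Sycp1 and Hormad1 both on chromosome 3. The RNA tables listed 12 transcript entries for them, because Syce2 and Syce3 each had a second start site. To show the upstream sequence that the H3K27ac intervals described below reach over, the bases before the start sites are printed from RefSeq (build GRCm38.p6, the assembly also known as mm10), 5′ to 3′ on the strand of the gene. They were searched on both strands for CACGTG, the palindromic E-box, and GCGGGA, an E2F element, and matches are in capitals. The first 5 stretches are the 150 bases that end just before the start site. The first 4 of these genes hold an E-box and the fifth, Sycp2, holds neither motif.
Sycp1, chr3:102936101-102936250, minus strand: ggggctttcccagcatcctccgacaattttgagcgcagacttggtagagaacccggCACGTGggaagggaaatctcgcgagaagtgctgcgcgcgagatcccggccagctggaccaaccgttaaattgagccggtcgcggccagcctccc
Sycp3, chr10:88459437-88459586, plus strand: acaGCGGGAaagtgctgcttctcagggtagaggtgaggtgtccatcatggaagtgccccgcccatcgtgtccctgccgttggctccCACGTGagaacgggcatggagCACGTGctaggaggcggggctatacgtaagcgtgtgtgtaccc
Tex12, chr9:50561269-50561418, minus strand: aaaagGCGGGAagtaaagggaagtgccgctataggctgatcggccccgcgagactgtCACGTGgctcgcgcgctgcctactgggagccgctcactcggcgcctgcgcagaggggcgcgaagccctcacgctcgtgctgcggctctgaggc
Hormad1, chr3:95559527-95559676, plus strand: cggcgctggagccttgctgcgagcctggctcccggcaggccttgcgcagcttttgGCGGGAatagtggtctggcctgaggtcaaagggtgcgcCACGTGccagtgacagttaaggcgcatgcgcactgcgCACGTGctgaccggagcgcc
Sycp2, chr2:178407659-178407808, minus strand: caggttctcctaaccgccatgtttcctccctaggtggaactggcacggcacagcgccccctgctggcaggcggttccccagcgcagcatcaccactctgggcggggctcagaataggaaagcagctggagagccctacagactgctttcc
The next stretch holds the 70 bases between the start of Trip13 and that of its divergent neighbour Brd9, and has no match.
Trip13, chr13:73937768-73937837, minus strand: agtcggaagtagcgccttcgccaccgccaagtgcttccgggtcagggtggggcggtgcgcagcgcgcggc
The last is a stretch of 30 bases around the E-box of Syce2, which lies between the gene's 2 start sites.
Syce2, chr8:84872158-84872187, plus strand: cgtttcattcagCACGTGctcggggcgggg

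The E-box was found in the 250 bases upstream of 5 of the 10 genes, namely Sycp1, Sycp3, Syce2, Tex12 and Hormad1, and in 6.86% of the 27025 genes with a promoter sequence. Sycp3 and Hormad1 each carried 2 copies. In Sycp3 they began 64 and 43 bases before the start, and in Hormad1 57 and 20 bases before it. The single copies began 94 bases before the start in Sycp1, 93 bases in Tex12 and 88 bases before the downstream start in Syce2. The upstream windows of these genes were rich in CpG dinucleotides, with a median of 13 in the 13 windows of the set and 6 in all 32851 windows. Among the 10362 windows with at least 13 CpG, the E-box was present in 9.74%. GCGGGA was found in 4 genes, Sycp3, Syce2, Tex12 and Hormad1, all of which also had the E-box, and in 18.8% of all genes. In the CpG-rich windows its share was 40.7%, and the count of 4 in 10 genes was near that level, though the measures differ. Both CpG-rich shares count single windows, whereas the member counts are of genes with all their windows. Of the 13 windows of the set, 7 had at least 13 CpG, and that of Sycp3, with 12, did not. TGACG, the core of a cAMP response element, was found in Syce1, Syce2 and Syce3 (19.8% of genes). CNCCTCAG, the element of the meiotic initiators MEIOSIN and STRA8, was found in Syce2 and Hormad2 (7.39%), and in Syce2 it overlapped the GCGGGA match. GTTGCC, part of the X-box read by RFX factors, was found in Syce3 and Trip13 (11.8%), and CAGTTG, a MYB element, in Syce3 (12.6%). A match describes these letters only, and no binding was measured.

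RNA of the complex did not move as a block. Of the 10 genes, 4 had less RNA in RS than in PS (Sycp2, Sycp3, Tex12 and Hormad1, by 2.10- to 2.68-fold), 1 had more (Syce2, by 3.30-fold), and 5 were not called. A gene was called when the edgeR quasi-likelihood test gave a Benjamini-Hochberg adjusted p under 0.05 and the change was at least 1.5-fold. By this rule 27.6% of the 14647 tested genes were called lower in RS and 30.4% higher, so the count of genes that fell was not far above that of genes in general. The median log2 fold change was -0.41 over the 10 genes and 0.01 over all tested genes. Together the 10 genes took 0.160% and 0.137% of the reads in the PS libraries and 0.0948% and 0.107% in the RS libraries. In RNA from mixed populations, fewer cells of a type and less RNA per cell cannot be told apart.

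**Figure D1:**
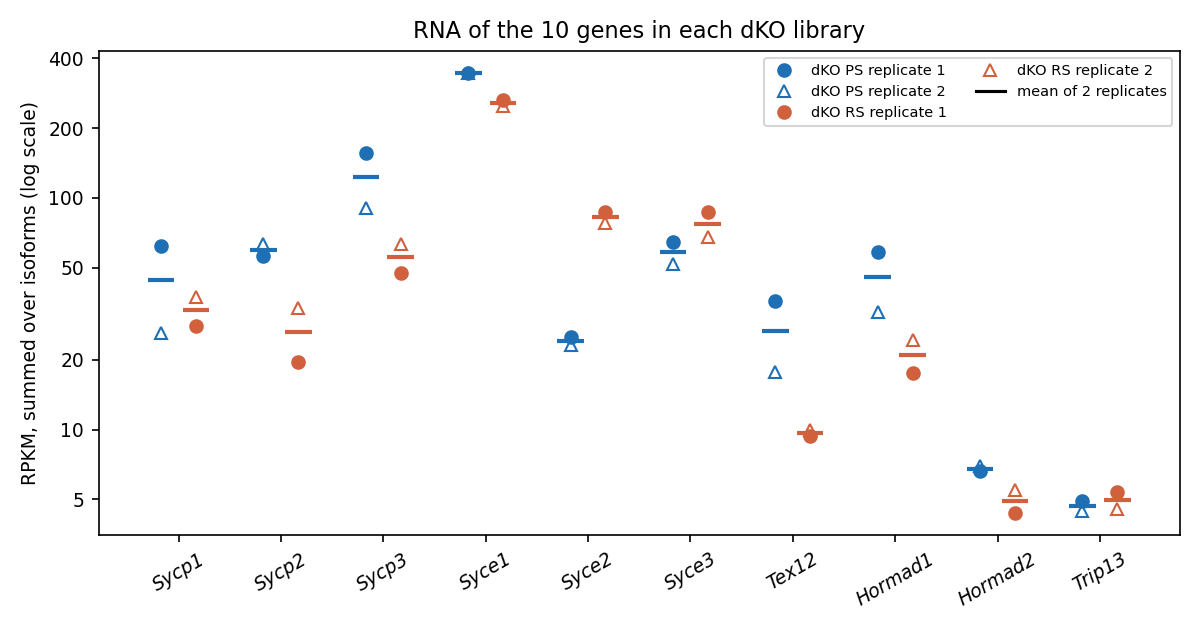
RPKM of the 10 genes in each library on a log scale, with PS in blue, RS in orange, replicate 1 as filled circles, replicate 2 as open triangles and the mean of 2 replicates as a bar. Syce2 is the only one of the called genes in which both RS points lie above both PS points, and the PS points of Sycp1 span both RS points.

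Among the axial and lateral element genes, both Sycp2 and Sycp3 fell. Sycp2, which binds SYCP3 along the axis, stood at 56.4 and 63.1 RPKM in the PS libraries and at 19.5 and 33.4 RPKM in the RS libraries. Both RS values were below both PS values. The log2 fold change was -1.14 ± 0.22 (SE, n = 2 per stage, edgeR adjusted p = 0.00223). Sycp3, the main component of the axis, measured 156 and 90.3 RPKM in PS and 47.5 and 63.4 RPKM in RS. The stages did not overlap, although the PS replicates differed by 1.72-fold between themselves, and the log2 fold change was -1.11 ± 0.24 (SE, n = 2 per stage, edgeR adjusted p = 0.00382).

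The transverse filament gene Sycp1 was not called, and 1 library decided its direction. It measured 62.2 RPKM in the first PS library, 26.1 in the second, and 28.0 and 37.4 in the RS libraries. The stages therefore overlapped, with a log2 fold change of -0.38 ± 0.33 (SE, n = 2 per stage, edgeR adjusted p = 0.329). Without PS replicate 1 the value turned to 0.32, and without PS replicate 2 it became -0.84 and was called lower. The first PS library also had higher values than the second for Tex12 (2.03-fold), Hormad1 (1.83-fold) and Sycp3 (1.72-fold), but not for Sycp2, Syce1 or Hormad2. That library had the lower spermatid marker sum and the higher Leydig marker sum of the PS pair, and the part of these differences in the member values was not tested.

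The central element genes went in different directions. Syce2, whose product assembles with TEX12, measured 25.0 and 23.1 RPKM in PS and 87.0 and 78.1 RPKM in RS. All RS values exceeded all PS values by a wide margin, with a log2 fold change of 1.72 ± 0.14 (SE, n = 2 per stage, edgeR adjusted p = 1.93e-05). This placed Syce2 above 82.0% of the tested genes. Tex12, the partner of SYCE2, went the other way, from 35.8 and 17.7 RPKM in PS to 9.38 and 9.91 RPKM in RS. Its log2 fold change of -1.42 ± 0.32 (SE, n = 2 per stage, edgeR adjusted p = 0.00451) was the lowest of the set, and the RS values were separated from PS values that themselves differed by 2.03-fold. Per length of transcript, Tex12 exceeded Syce2 in the first PS library and was below it in the second, whereas Syce2 exceeded Tex12 in both RS libraries.

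Syce1 and Syce3 changed less. Syce1, which binds SYCE3 in the central element, had the most RNA of the set in both stages, with 345 and 347 RPKM in PS and 264 and 249 RPKM in RS. The stages did not overlap, and the log2 fold change of -0.39 ± 0.11 had an edgeR adjusted p of 0.0147 (SE, n = 2 per stage), but the difference of 1.31-fold was below the minimum for a call. Syce3, which recruits the other central element proteins to SYCP1, was at 64.8 and 52.0 RPKM in PS and 87.4 and 67.7 RPKM in RS. Here RS lay above PS, and the log2 fold change of 0.47 ± 0.19 was not called (SE, n = 2 per stage, edgeR adjusted p = 0.0617). Without PS replicate 1 (0.59) or without RS replicate 2 (0.75) it was called higher.

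The second start sites of Syce2 and Syce3 were used unevenly in the tables. The Syce2 entry for the downstream start had 261 and 315 reads in PS and 942 and 680 in RS. The entry for the upstream start had 66 and 0 reads in PS and 414 and 336 in RS, so both entries contributed to the rise. For Syce3 the entry with the distal start had 0 reads in both PS libraries and 79 and 25 in the RS libraries, beside 330 and 258 in PS and 473 and 333 in RS for the proximal start. The authors' counting divided reads between overlapping transcripts by an estimate, so the split between entries is less certain than their sum.

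Of the HORMA genes, Hormad1 fell and Hormad2 was not called. Hormad1, which marks unsynapsed axes and is needed for synapsis, measured 58.7 and 32.1 RPKM in PS and 17.5 and 24.4 RPKM in RS. The stages did not overlap, and the log2 fold change was -1.07 ± 0.27 (SE, n = 2 per stage, edgeR adjusted p = 0.00791). Without RS replicate 1 it was -0.76 with an adjusted p of 0.0602, so this call rests on that library. Hormad2, which acts in the surveillance of asynapsed chromosomes, was much lower in level, at 6.60 and 6.97 RPKM in PS and 4.36 and 5.50 RPKM in RS. Its RS values were both below its PS values, with a log2 fold change of -0.42 ± 0.23 that was not called (SE, n = 2 per stage, edgeR adjusted p = 0.142). Trip13, the ATPase that strips HORMADs from the axis, stood at 4.92 and 4.45 RPKM in PS and 5.39 and 4.53 RPKM in RS. These overlapped, with a log2 fold change of 0.13 ± 0.21 (SE, n = 2 per stage, edgeR adjusted p = 0.610).

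Ordered by RPKM in PS, Syce1 led with a mean of 346 ± 1.71 (SD, n = 2), followed by Sycp3 at 123 ± 46.2. Sycp2, Syce3, Hormad1, Sycp1, Tex12 and Syce2 followed between 59.7 and 24.1, and neighbours in this stretch overlapped. Hormad2 at 6.79 ± 0.26 and Trip13 at 4.68 ± 0.33 came last, without overlap. In RS, Syce1 still led at 256 ± 10.7. Syce2 had moved from the eighth to the second place at 82.6 ± 6.29, next to Syce3 at 77.5 ± 13.9, which overlapped it. Hormad2 and Trip13 remained lowest and overlapped each other, at 4.93 ± 0.80 and 4.96 ± 0.61. Both were nevertheless above the median of all 23343 genes, which was 0.785 RPKM in PS and 1.12 RPKM in RS. Both RS values lay below both PS values in 6 of the 10 genes and above them in 2, beside 42.7% and 40.9% of the tested genes.

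Genes that work beside the complex were equally mixed. Of 7 measured further genes of the complex and the meiotic axis, 1 fell and 3 rose, with a median log2 fold change of 0.30. The largest change belonged to Rec8, the meiotic cohesin kleisin, which went from 7.13 and 10.1 RPKM in PS to 52.2 and 54.9 RPKM in RS (log2 fold change 2.68 ± 0.19, SE, edgeR adjusted p = 9.3e-06). The one that fell was Fkbp6, a co-chaperone found on the complex, at -0.76 ± 0.17, and that call was lost without RS replicate 2 (-0.59, edgeR adjusted p = 0.0773). Of 7 measured crossover factors, 3 fell and 1 rose, with a median of -0.32. Mlh3, a component of the crossover-forming MutLγ complex, fell from 21.0 and 18.0 RPKM to 3.04 and 3.64 RPKM (log2 fold change -2.51 ± 0.16, SE, edgeR adjusted p = 5.65e-06), whereas Tex11 rose by 1.13 ± 0.22 on the log2 scale.

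Of 8 factors for the formation of DNA breaks and strand exchange, 3 fell and 1 rose, with a median of 0.18. Ccdc36, which encodes the axis-bound break factor IHO1, a partner of HORMAD1, had a log2 fold change of -1.95 ± 0.16, and Dmc1, the meiotic recombinase, one of 1.46 ± 0.20. Of 5 genes for other HORMA domain proteins and the adaptor of TRIP13, 2 fell and 1 rose, with a median of -0.18. Mad2l1, the spindle checkpoint protein MAD2 that TRIP13 remodels, fell by 1.13 on the log2 scale with an SE of 0.19. The adaptor gene Mad2l1bp had a value of 0.59 ± 0.22 and just passed the fold minimum. It was not called in 6 of the 10 alternative fits, namely DESeq2 (adjusted p = 0.105), limma at either pseudocount, no count filter, and without PS replicate 1 or RS replicate 1, where its log2 fold change lay between 0.47 and 0.60. All 4 kinase and cyclin genes of desynapsis were called, 2 in each direction, from -1.69 ± 0.16 for Cdk1 to 1.06 ± 0.15 for Ccnb1. In either direction 58.0% of all tested genes were called, beside 5 of the 10 genes of the complex.

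**Figure D2:**
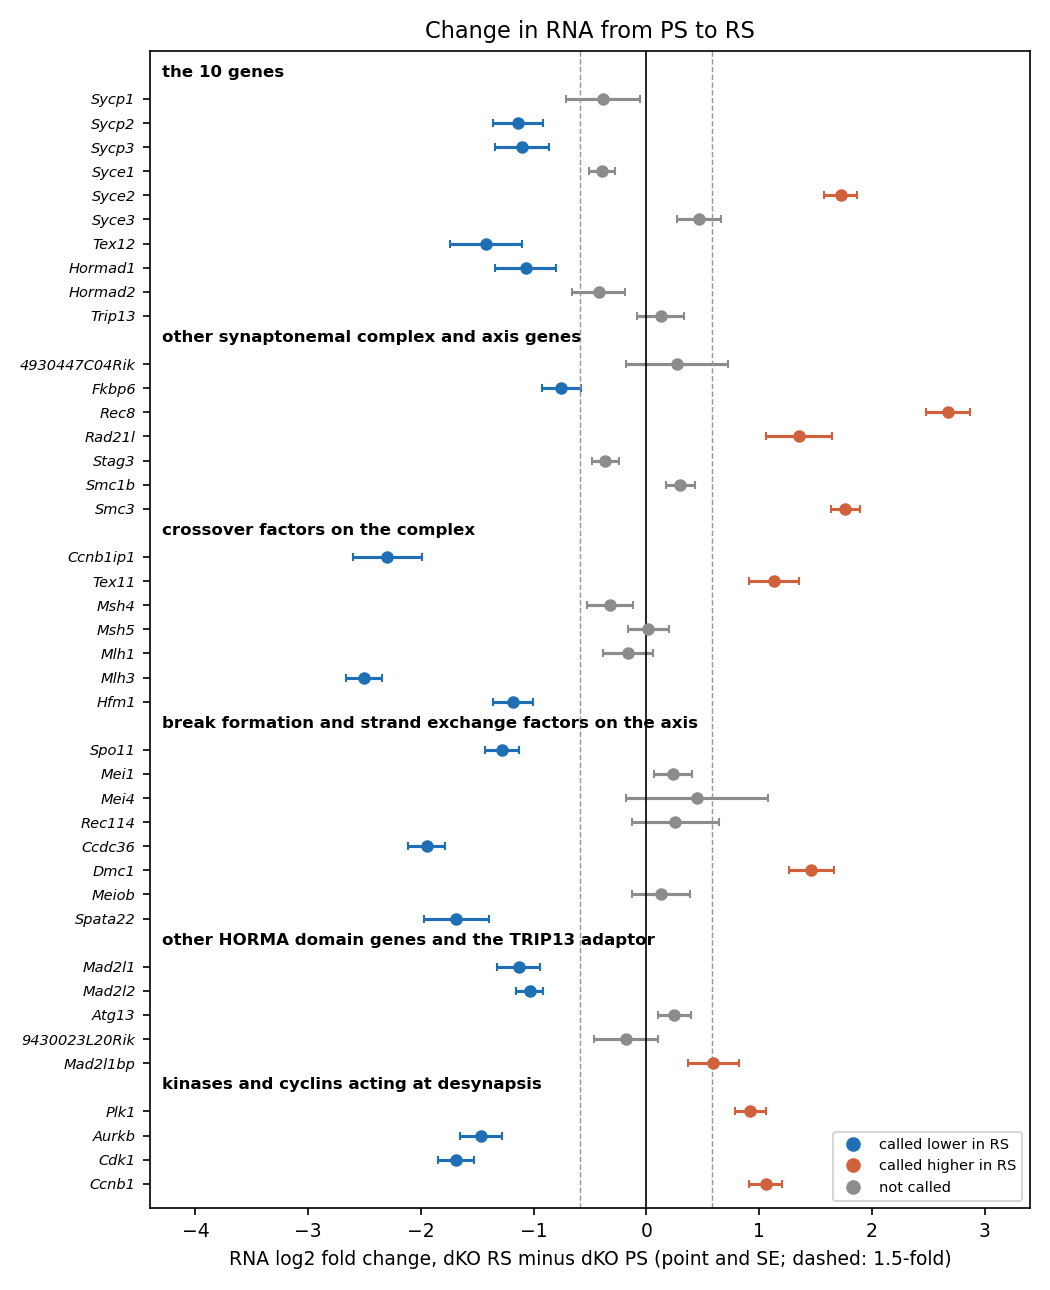
RNA log2 fold change of RS relative to PS in dKO cells for the 10 genes and for 5 lists of partner genes, as points with SE from edgeR, blue where called lower, orange where called higher and grey where not called, with dashed lines at 1.5-fold. The set spans from -1.42 for Tex12 to 1.72 for Syce2, and each partner list has points on both sides of 0.

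H3K27ac, a mark of active promoters and enhancers, was present at the start sites of all 10 genes in both stages. A peak summit lay within 2 kb of a start in all 4 libraries for each of them, beside 48.6% of the 23343 genes. That share includes genes with little or no RNA. A mean of at least 1 RPKM was reached by 11177 genes in dKO PS and 11970 in dKO RS, among them all 10 members. The share with a peak among such genes was not computed. For each of the 10 genes the peak interval covered the start site itself in every library. At Sycp2, Syce1, Syce2 and Hormad1 the highest summit was downstream of the start, outside the upstream sequence, in all 4 libraries. Over the 10 genes the highest summits lay between 483 bases upstream and 403 bases downstream of the start, and the intervals were 1055 to 3711 bases long. Fold enrichment at the summit, the pileup of fragments relative to the background of that library, ranged from 14.3 for Tex12 to 42.2 for Sycp1 in PS and from 9.87 for Tex12 to 34.2 for Sycp1 in RS. In PS the marks at Sycp1, Sycp2 and Sycp3 exceeded those of 95.6% to 98.9% of genes with a start-site peak in the same library. By the same measure the mark at Tex12 exceeded 54.5% of genes in PS replicate 1 and 43.6% in PS replicate 2.

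**Figure D3:**
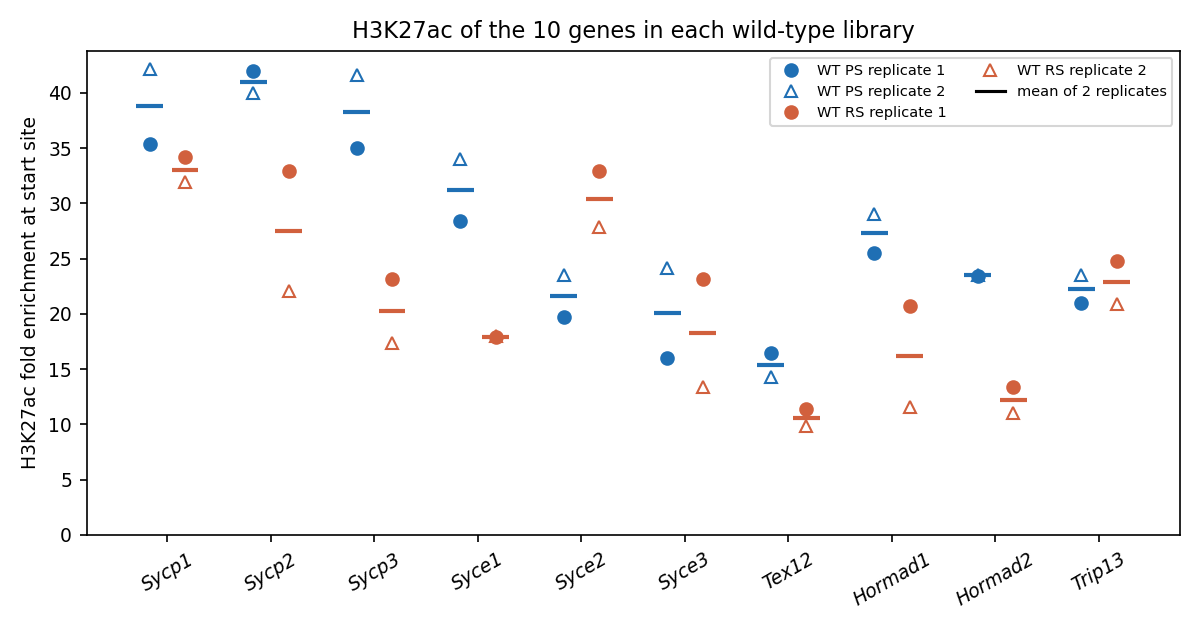
H3K27ac fold enrichment at the highest summit within 2 kb of the start for the 10 genes in each wild-type library, with PS in blue, RS in orange, replicate 1 as filled circles, replicate 2 as open triangles and the mean of 2 replicates as a bar. Syce2 alone has both RS points above both PS points, and the stages overlap at Syce3 and Trip13.

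The deposited H3K27ac values fell from PS to RS for genes in general, so the members were read against that shift. Over the 11352 genes tested with limma the median log2 difference was -0.42. As deposited, 33.2% of genes were called lower in RS and 7.99% higher. With each library centred on its median, 13.3% were called lower and 16.7% higher. The median fold enrichment of these genes was 17.3 and 18.6 in the PS libraries and 15.1 and 11.6 in the RS libraries. Whether this shift belongs to the cells or to the libraries was not tested.

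As deposited, 5 of the 10 genes were called lower in RS (Sycp2, Sycp3, Syce1, Hormad1 and Hormad2) and 0 higher by limma, with 1 higher at an unadjusted p under 0.05. Both RS values lay below both PS values in 7 genes and above them in 1, beside 58.4% and 13.8% of tested genes. After centring, limma called 0 of the 10 lower, with 4 lower at an unadjusted p under 0.05, and called Syce2 higher. Sycp3, Syce1, Hormad1 and Hormad2 then had adjusted p-values under 0.05 with declines below the fold minimum. The calls of lower H3K27ac at single genes thus depended on whether the shift over all genes was removed. They also depended on the libraries in the fit, with 0 of the 10 called lower without PS replicate 1 or without PS replicate 2, 3 without RS replicate 2 and 6 without RS replicate 1. Over all genes the lower calls likewise dropped to 756 without PS replicate 1 and to 368 without PS replicate 2. The log2 differences themselves stayed negative in both of these fits, at -1.05 and -0.80 for Sycp3, -0.92 and -0.66 for Syce1, -0.90 and -0.72 for Hormad1, -0.95 and -0.95 for Hormad2, and -0.57 and -0.64 for Sycp2.

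At Syce2 the mark stood at 19.8 and 23.6 in the PS libraries against 33.0 and 27.9 in the RS libraries. Its RS values were both above its PS values, with a log2 difference of 0.49 ± 0.24 as deposited, which was not called (SE, n = 2 per stage, limma adjusted p = 0.0865). Centred, the difference was 0.93 ± 0.14 (SE, limma adjusted p = 4.15e-08). As deposited it exceeded that of 90.3% of tested genes. The acetylated interval over its 2 start sites was also longer in RS, at 3711 and 3149 bases against 2589 and 2495 in PS.

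Sycp3 declined from 35.0 and 41.7 in PS to 23.2 and 17.4 in RS. The log2 difference was -0.93 ± 0.23 as deposited (SE, n = 2 per stage, limma adjusted p = 0.000435) and -0.48 ± 0.13 after centring, where its adjusted p of 0.00214 came with a change below the fold minimum. Sycp2 declined from 42.0 and 40.0 to 33.0 and 22.1. Its difference of -0.60 ± 0.21 was called as deposited, whereas the centred value of -0.16 ± 0.13 was not (SE, n = 2 per stage, limma adjusted p = 0.0133 and 0.320). At Sycp1 both RS values, 34.2 and 31.9, lay just under the PS values of 35.4 and 42.2. The difference of -0.23 ± 0.20 as deposited turned to 0.21 ± 0.13 after centring, and neither was called.

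At Hormad1 fold enrichment was 25.5 and 29.0 in PS and 20.7 and 11.6 in RS. The difference was -0.81 ± 0.26 as deposited (SE, n = 2 per stage, limma adjusted p = 0.00802) and -0.37 ± 0.15 after centring. Hormad2 was nearly equal in the PS libraries, at 23.5 and 23.6, and lower in RS, at 13.4 and 11.03. Its difference of -0.95 ± 0.28 as deposited was the most negative of the set (SE, n = 2 per stage, limma adjusted p = 0.00358), and it was -0.51 ± 0.16 after centring. At Trip13 the stages overlapped, with 21.0 and 23.6 in PS and 24.8 and 20.9 in RS. The log2 difference of 0.03 ± 0.25 as deposited was not called, and the centred one of 0.48 ± 0.14 remained under the fold minimum. The Trip13 peak also covers the start of Brd9, a gene for a chromatin remodelling subunit that starts 71 bases away on the other strand, so the mark cannot be assigned to one of them. Brd9 RNA measured 15.8 and 26.3 RPKM in PS and 12.6 and 15.8 RPKM in RS.

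In the central element, Syce1 went from 28.4 and 34.0 in PS to 17.9 and 18.0 in RS, with a difference of -0.79 ± 0.25 as deposited (SE, n = 2 per stage, limma adjusted p = 0.00598) and -0.35 ± 0.14 after centring. Tex12 carried the weakest mark, at 16.5 and 14.3 in PS and 11.4 and 9.87 in RS. Its stages did not overlap, but the difference of -0.53 ± 0.30 was not called (SE, n = 2 per stage, limma adjusted p = 0.145), and after centring -0.09 ± 0.19 remained. Syce3 varied more within stages than between them, at 16.1 and 24.1 in PS and 23.2 and 13.4 in RS. Its difference of -0.16 ± 0.27 as deposited and 0.28 ± 0.16 after centring was not called.

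Set beside each other, RNA and start-site H3K27ac of the 10 genes changed in similar order. Spearman's rho between the RNA log2 fold change and the H3K27ac log2 difference was 0.65 over the 10 genes, and 0.42 over the 10750 genes tested in both assays. The points share their 8 libraries and the assays differ in genotype, so this is a description. After centring, the sign was the same in both assays for 9 of the 10 genes and for 63.0% of all genes, the exception being Sycp1. In the deposited values, each of the 4 genes whose RNA fell had lower H3K27ac in both RS libraries than in both PS libraries. That H3K27ac pattern was found in 58.4% of the 11352 genes tested for the mark. Sycp1, Syce1 and Hormad2, whose RNA was not called, had the same pattern of the mark. Of the 10750 genes tested in both assays, 2516 had it together with a call of lower RNA. How many of those 10750 genes had a call of lower RNA in all was not counted, so no matching share is given. After centring, the H3K27ac differences were -0.48 for Sycp3, -0.37 for Hormad1, -0.16 for Sycp2 and -0.09 for Tex12, and none was called. Syce2 was higher in RS in both assays. The acetylation did not fall in proportion to RNA at Tex12, which had the lowest RNA fold change and a centred H3K27ac difference close to 0.

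**Figure D4:**
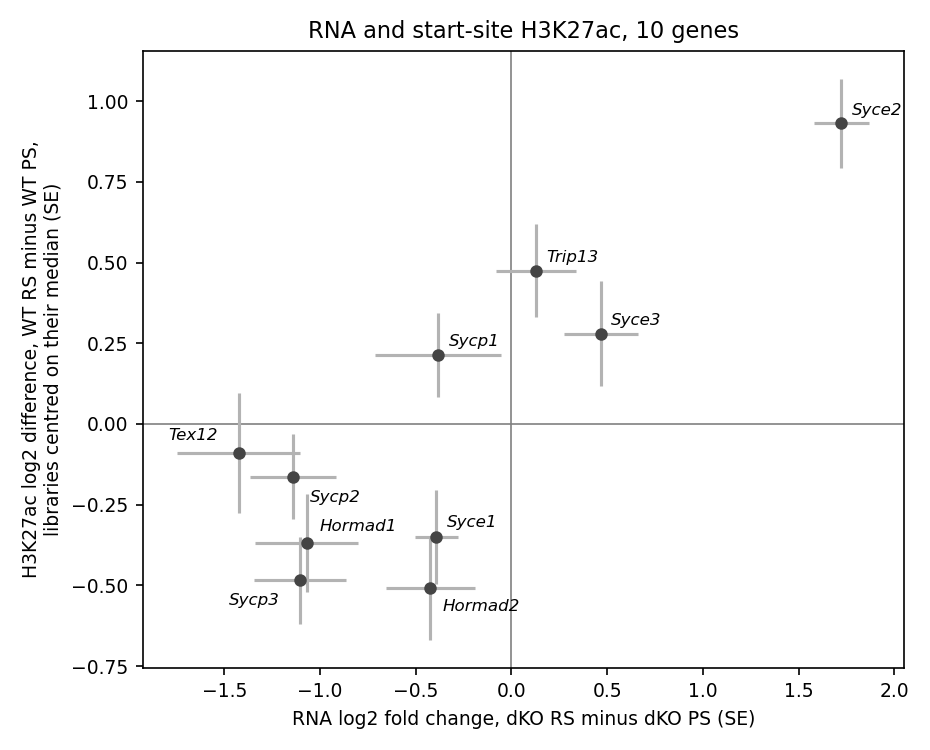
RNA log2 fold change in dKO cells (horizontal axis) and H3K27ac log2 difference at the start site in wild-type cells with libraries centred on their median (vertical axis), both RS relative to PS, with SE. Syce2 lies furthest to the upper right, in the same quadrant as Syce3 and Trip13, and the 4 genes whose RNA fell lie to the left at centred H3K27ac values between -0.48 and -0.09.

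Away from the start sites, peaks that the deposited annotation assigned to these genes were found mostly in RS. The peak lists held 22 and 26 intervals for the 10 genes in PS and 50 and 31 in RS, covering 26315, 27421, 43859 and 27262 bases. The first RS library also had the most peaks of any library, 74919 against 41095 to 49434 in the others, so its counts were not read as a difference. Of the merged regions beyond 2 kb, 5 had a peak in all 4 libraries, 4 had peaks in both RS libraries and neither PS library, and none was specific to PS. The remaining 29 were not reproduced in both replicates of a stage.

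Sycp1 held 4 of these regions, all within introns and all higher in both RS libraries than in both PS libraries. The strongest, chr3:102865228-102866692 (mm10) in intron 22, had values of 4.94 and 6.03 in PS and 19.5 and 14.5 in RS. The mean RS value was 3.10-fold the mean PS value, whereas the difference at the start site of the gene was not called. The other 3 had no PS peak. One in intron 24, at chr3:102863985-102864425, had values of 2.85 and 4.64 in RS, and a pair in intron 20, at chr3:102885459-102886186 and chr3:102886927-102887476, had values of 8.14 and 4.64 and of 7.32 and 5.81.

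Downstream of Trip13, 4 intergenic regions carried peaks in all 4 libraries. The largest, chr13:73897042-73900227, lay 12235 bases beyond the 3′ end of the gene and rose from 8.23 and 9.32 in PS to 25.6 and 18.6 in RS. Its neighbour at chr13:73900396-73901827 went from 4.53 and 8.22 to 16.3 and 9.87. At the other two, chr13:73879792-73881327 had lower values in RS (9.88 and 11.5 against 7.73 and 5.22) and the values of chr13:73894770-73896224 overlapped. The deposited annotation assigns these regions to Trip13, but the start of Nkd2 or of the miRNA gene Gm25197 lies nearer to each of them, and which gene they act on is not known from these data. One more region assigned to Hormad2, chr11:4273279-4275075, lay 71308 bases beyond the gene and over the start of the lincRNA Gm11959. It had values of 8.54 and 6.97 in RS and no peak in PS.

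**Figure D5:**
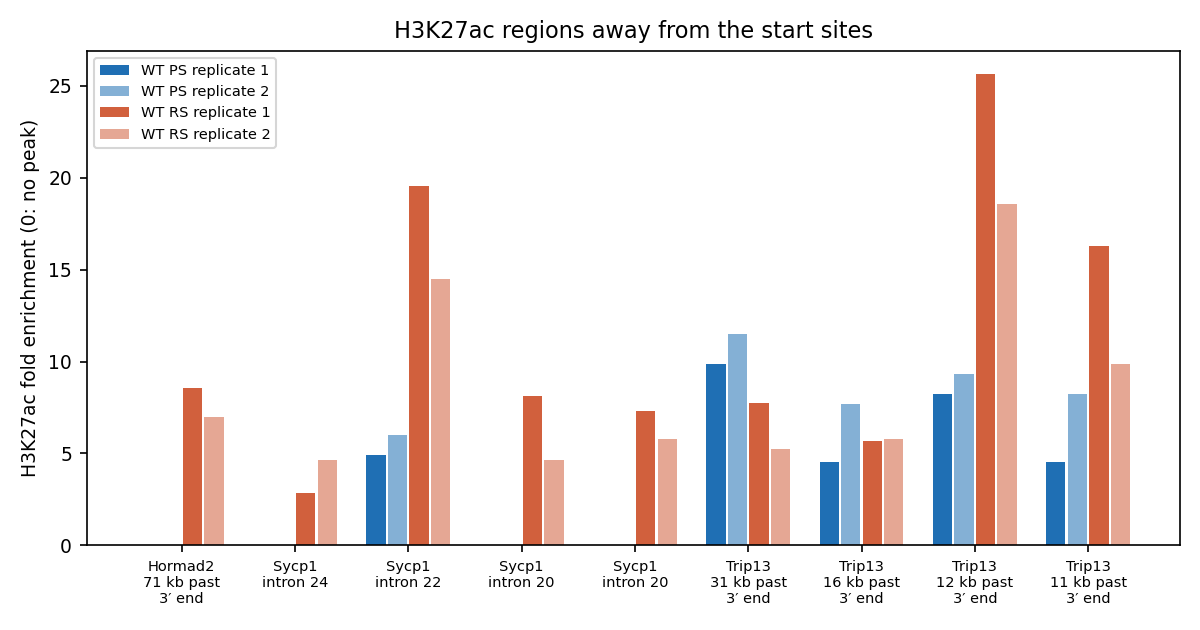
H3K27ac fold enrichment of the 9 regions more than 2 kb from a start that were present in both replicates of a stage, with PS bars in blue and RS bars in orange and the second replicate paler, where 0 means that no peak was called. The Sycp1 intron 22 region and the nearer Trip13 regions reach higher bars in both RS libraries than in the PS libraries.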

How the data were processed

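The libraries were made from PS and RS, by ChIPmentation for H3K27ac (wild type) and by amplification of RNA for RNA-seq (dKO). Each group had 2 samples, given as biological replicates in the study's methods. Which mouse each came from is not given in the sources used here, and p-values measure the spread between these samples. The processing notes of the submitters list Bowtie (1.1.1), MACS2 (2.1.0.20140616) and STAR (2.4.2a) with mm10. The RNA was amplified with a kit that does not mark strand. The deposited RNA tables give a read count and an RPKM value per RefSeq transcript entry, which the authors obtained by dividing reads between isoforms by expectation maximization. The deposited peak lists give, for each summit called by the authors in each sample separately, the pileup signal, the fold enrichment as a ratio over 1 background value per sample, and −log10 p and q values.

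Counts and RPKM were summed per gene. Genes were kept where 2 or more libraries had 10 counts or more, and were tested with the edgeR (4.0.16) quasi-likelihood test after TMM normalization, with stage as the only term. For H3K27ac, the highest summit within 2 kb of a start was taken, and genes with a peak in all 4 libraries were tested with limma (3.58.1) on log2 fold enrichment. Calls required a Benjamini-Hochberg adjusted p under 0.05 and at least 1.5-fold. Both procedures were tested on simulated data. Mean fold enrichment covers called peaks only, and read depth of the ChIP libraries is unknown. All 10 members and the targeted genes are named, and of each partner list the genes with the largest and smallest log2 fold change and any called against most of its list. Brd9 is named because it starts within 2 kb of a member. Of the partner genes, 31 of 33 were matched, Rec114 through an older symbol, and Sycp2l and Rnf212 were not. Promoter sequences came from RefSeq (GRCm38.p6), and all 10 members matched. Intron numbers and the lincRNA came from RefSeq and GENCODE annotation of the same assembly. The members, lists and motifs were chosen with earlier results of these data known. Alternatives were DESeq2 (1.42.0), RLE size factors, no count filter, limma on log2(RPKM + 1) and log2(RPKM + 0.1), windows of 1 and 5 kb, centring, a −log10 p of at least 5, a replicate block, calls by adjusted p alone, presence of a peak in either replicate, peaks in at least 2 samples, peaks by deposited gene annotation, and omission of each library in turn.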

Additional observations from a re-analysis of the deposited data

How the results depend on the processing

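In RNA the number of members called lower was 4 with DESeq2, RLE size factors, no count filter, limma at either pseudocount and the replicate block, 5 by adjusted p alone, and 3 to 5 when a library was left out. Of the 100 alternative values of single members, 95 kept both direction and side of the threshold. Sycp1 ran from -0.84 (without PS replicate 2) to 0.32 (without PS replicate 1). Of the targeted genes, Scml2 ran from -0.77 to 0.77 without single libraries. For H3K27ac, centring each library on its median gave 1896 genes higher and 1512 lower in RS in place of 907 and 3764, with 0 members lower, because it removes the shift of -0.42, and it turned Sycp1 to 0.21 and Syce3 to 0.28. Taking genes with a peak in at least 2 samples gave 2169 genes lower and 3 members lower, and the cause was not tested. When a library was left out, genes called higher ranged from 68 to 1036, genes called lower from 368 to 5542, and members called lower from 0 to 6, with fewer samples in the fit and the lone sample of a stage assumed to vary like the other stage. Without single libraries Syce3 ran from -0.56 to 0.24 and Trip13 from -0.090 to 0.16. All 10 members kept a start-site peak in both stages with the 1 kb window and at a −log10 p of at least 5. The 5 kb window and a peak in either replicate also gave 10 but could not give fewer. Deposited gene annotation gave 10 as well, but it counts peaks at any distance from the start. The labels do not say that equal replicate numbers mark 1 mouse, so the replicate numbers were not treated as a pairing. The deviations of replicate 1 from the stage means correlated between PS and RS with r = 0.226 over 14647 genes. That value does not settle whether the numbers pair samples. With the replicate block, 4589 genes were higher and 4134 lower in RNA, and in H3K27ac 703 were higher and 2173 lower, with 2 members lower, Sycp3 and Hormad2, and adjusted p-values of 0.127 for Sycp2, 0.0725 for Syce1 and 0.0773 for Hormad1. Groups of 2 limit all of these tests, and the depth of the ChIP libraries is unknown.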
